A study of Oreochromis niloticus with 9 samples.

Results

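The proteasome loci of the tilapia liver were collected by gene symbol alone: every locus in the expression table whose symbol starts with psma, psmb, psmc, psmd, psme, psmf or psmg. This gave 53 loci with 52 different symbols, out of 37283 loci in the table. By the known place of their products they were divided into 8 loci of the alpha ring, 7 of the constitutive beta ring, 19 of the regulatory cap, 7 of the immunoproteasome (psmb8a, psmb9a, psmb10, psmb11, psmb12, psme1 and psme2), 7 assembly factors and 4 other activators or inhibitors (psme3, psme4a, psme4b and psmf1). The remaining locus, psmc3ip, shares the letters of the prefix but encodes a meiotic recombination factor in mammals, so the label of proteasome subunit did not apply to it. It is still counted among the 53 loci and in the sums and counts over all of them below.

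The proteasome is the barrel-shaped protease that cuts ubiquitin-tagged proteins in the cytosol and nucleus of every cell. Its core is a stack of alpha rings, which form the gate, and beta rings, some of whose subunits do the cutting, and a regulatory cap recognises, unfolds and feeds in the substrates. In cells exposed to interferon gamma, and constantly in many immune cells, the cutting subunits psmb5, psmb6 and psmb7 are replaced by psmb8, psmb9 and psmb10 to form the immunoproteasome, while the activator psme1 and psme2 opens the gate without ubiquitin. The products are peptides, many of which are shown on MHC class I molecules. The roles given below are those known in mammals and yeast.

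Liver RNA of GIFT (genetically improved farmed tilapia, Oreochromis niloticus) was sequenced after 8 weeks on diets with 3 contents of apple peel powder (APP, written APE in the sample labels). Fish of group C received no APP, those of APP_A 0.2% APP and those of APP_H 0.8% APP. Each group had 3 libraries, and each library came from a pool of RNA from 5 fish of the same tank, so n = 3 tanks per group and differences between single fish were averaged out. By the labels, the groups differed in nothing else. In the paper, cellulose in the diets was lowered as APP was raised. The mean weight gain reported there was highest in APP_A and lowest in APP_H among these groups. Levels are FPKM, fragment numbers divided by transcript length and by all mapped fragments. Without read counts the depth of a value cannot be stated, and counting errors are not given.

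Libraries differed in the levels of cell markers. The summed FPKM was 1226503 in APP_H3 and between 1941494 and 2631532 in the other 8 libraries, and APP_H3 also stood apart in its cell markers. The mean log2(FPKM + 1) of 20 hepatocyte marker loci was 6.09 in APP_H3, against 9.92 to 11.1 in the other libraries, and all 20 were below the median of those libraries. The 6 exocrine pancreas loci averaged 4.57 in APP_H3, against 6.64 to 9.61 elsewhere, and the 8 erythroid loci 6.99, against 2.41 to 4.62. No marker locus of these lists was at 0 in all libraries. For proteasome loci and classes, fitted values of APP_H are therefore given below also without APP_H3. The proteasome loci summed to between 670.2 and 892.7 FPKM in the other 8 libraries and to 953.7 FPKM in APP_H3, which was 0.0271% to 0.042% of the summed FPKM in the 8 and 0.0778% in APP_H3. That last share is taken of the lowest summed FPKM. The largest members of the sum in APP_H3 were psme2 (122 FPKM), psme1 (117 FPKM) and psmb9a (61.1 FPKM). The mean log2(FPKM + 1) of the alpha ring was lowest in APP_H3 (3.69). For the constitutive beta ring (4.40) and the cap (3.56) it lay within the range of the other libraries. In the read statistics of the paper, APP_H1 had the lowest base quality of all libraries and APP_A3 the lowest share of valid reads.

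The core and cap loci found were above 0 in every library. The symbol rule gave no locus for psma2 or psma7, and 3 of the 8 alpha ring loci were named for psma6. Among the alpha ring loci, which build the gate, mean levels over the 9 libraries ran from 4.12 FPKM for psma6 to 30.1 FPKM for psma3, with a median of 13.7 FPKM. Psma3 had 31.0, 31.3 and 34.8 FPKM in C, 23.2, 31.6 and 31.1 FPKM in APP_A, and 29.7, 34.5 and 23.9 FPKM in APP_H. Psma6, 1 of 3 loci named for this subunit, had 4.42, 3.91 and 4.32 FPKM in C, 4.83, 4.62 and 3.21 FPKM in APP_A, and 3.45, 4.14 and 4.18 FPKM in APP_H. Both loci overlapped between all diets, and the lowest psma3 value was well above the highest psma6 value, a comparison that FPKM allows since it is scaled by length. The interval of psma6 is shared with nfkbiaa, and 15 of the 53 loci share an interval with another locus in this way. Whether the counting used strand is not given in the sources used here, so reads of such overlapping loci may not have been told apart.

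In the constitutive beta ring, mean levels ran from 5.10 FPKM for psmb2 to 42.4 FPKM for psmb1, with a median of 21.5 FPKM. Psmb1, a structural subunit without cutting activity, had 43.0, 36.9 and 45.1 FPKM in C, 34.0, 48.8 and 37.0 FPKM in APP_A, and 44.7, 47.8 and 44.2 FPKM in APP_H. The level in APP_H3, where hepatocyte markers were low, lay within the range of the other libraries. The cutting subunits averaged 17.2 FPKM for psmb5 (chymotrypsin-like), 21.5 FPKM for psmb6 (caspase-like) and 15.9 FPKM for psmb7 (trypsin-like). Psmb5 ranged from 13.2 to 21.5 FPKM and psmb6 from 15.8 to 28.3 FPKM, so these neighbours in the order of levels overlapped. On the table's scaffold GL831287.1, psmb1 (386609 to 389950) lies 2186 bases from the cap gene psmc3 (382499 to 384423).

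The regulatory cap had 19 loci with mean levels from 2.24 FPKM for psmd11b to 21.9 FPKM for psmd8 and a median of 12.7 FPKM. The ring of ATPases that unfolds substrates was represented by psmc1a, psmc2, psmc3, psmc4, psmc5 and psmc6, whose mean levels lay between 5.45 FPKM for psmc5 and 20.0 FPKM for psmc2. Psmd8, a lid subunit, had 20.9, 20.6 and 23.1 FPKM in C, 25.3, 23.5 and 21.0 FPKM in APP_A, and 14.9, 23.4 and 24.6 FPKM in APP_H. Only APP_H1 was below the range of the other libraries. The deubiquitinase psmd14, which cuts the ubiquitin chain off the substrate, ranged from 6.0 to 10.8 FPKM, and its inactive partner psmd7 from 11.5 to 18.4 FPKM. The 2 loci for the ubiquitin receptor psmd4 averaged 12.9 FPKM (psmd4a) and 10.3 FPKM (psmd4b), while the 2 loci for the lid subunit psmd11 averaged 4.11 FPKM (psmd11a) and 2.24 FPKM (psmd11b).

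**Figure D1:**
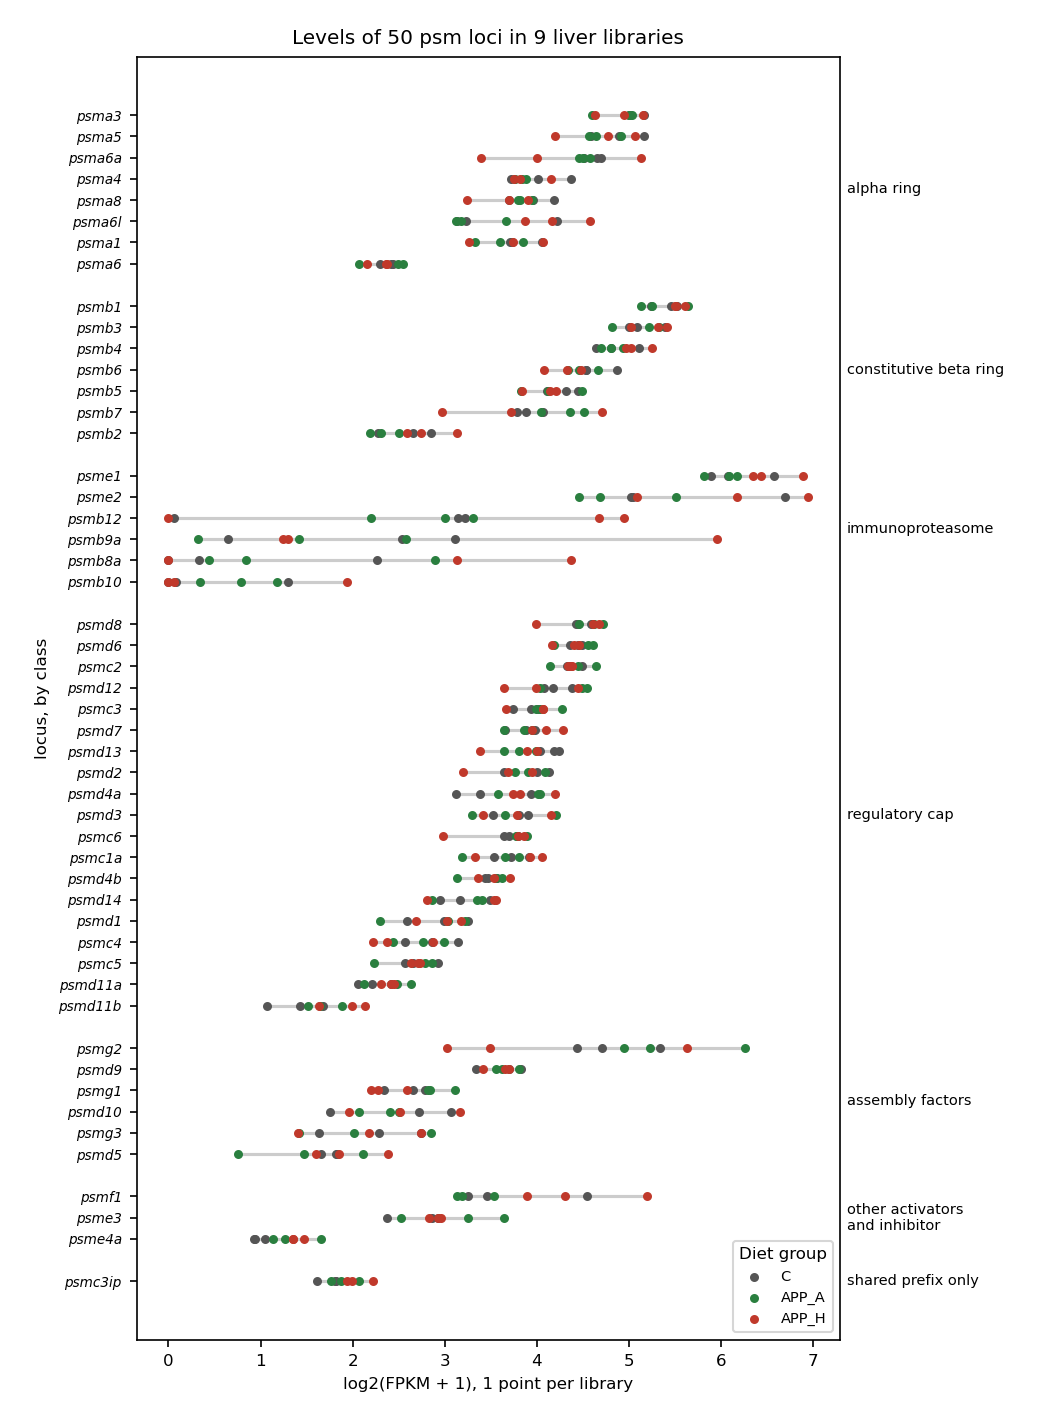
Levels of the 50 loci that passed the filter on low values, grouped by class and ordered within a class by mean level. Each point is a library, coloured by diet, on a log2(FPKM + 1) axis, and the grey line joins the lowest to the highest library. The points of most core and cap loci lie close together, while those of psmb8a, psmb9a, psmb10 and psmb12 spread from near 0 upward.

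The immunoproteasome held the locus with the highest mean level and those with the widest ranges. The activator genes were the highest: psme1 averaged 77.3 FPKM and psme2 53.6 FPKM. Psme1 had 66.7, 58.1 and 94.3 FPKM in C, 71.4, 67.1 and 55.4 FPKM in APP_A, and 80.5, 85.1 and 117 FPKM in APP_H. Psme2 had 31.9, 31.6 and 103 FPKM in C, 44.5, 20.9 and 24.7 FPKM in APP_A, and 33.0, 71.1 and 122 FPKM in APP_H. High levels of psme2 were found in C3, APP_H2 and APP_H3, so that the C and APP_H groups overlapped, and in psme1 the same C3 and APP_H3 were the 2 highest. The products of psme1 and psme2 join in a mixed ring, and the ratio of psme2 to psme1 was 0.478, 0.543 and 1.09 in C, 0.624, 0.312 and 0.446 in APP_A, and 0.410, 0.835 and 1.04 in APP_H.

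The inducible beta subunits were much lower in most libraries. Psmb8a, the chymotrypsin-like subunit of the immunoproteasome, had 3.79, 0.26 and 0 FPKM in C, 0.36, 0.79 and 6.46 FPKM in APP_A, and 0, 7.76 and 19.7 FPKM in APP_H. Psmb9a, the counterpart of psmb6, had 0.57, 4.80 and 7.61 FPKM in C, 1.68, 4.97 and 0.25 FPKM in APP_A, and 1.45, 1.36 and 61.1 FPKM in APP_H. Psmb8a was highest in APP_H3 and next in APP_H2, whereas psmb9a was high in APP_H3 but not in APP_H2, and both were low in APP_H1. Psmb12, a further inducible-type beta subunit gene of fish, had 8.30, 7.83 and 0.04 FPKM in C, 7.03, 8.93 and 3.58 FPKM in APP_A, and 0, 24.5 and 29.9 FPKM in APP_H. Psmb10, the trypsin-like subunit, had 0.06, 1.46 and 0 FPKM in C, 1.27, 0.73 and 0.27 FPKM in APP_A, and 0, 2.82 and 0.04 FPKM in APP_H. None of the 4 loci separated any diet from another. Psmb10 and psmb12 are listed on the same interval (639744 to 653315 of scaffold GL831408.1), so that how reads were divided between them is uncertain. With psmb9a (632587 to 638878) and psmb8a (654125 to 666420), the 4 loci lie within 33833 bases of that scaffold. Values of 0 in an FPKM table can be failed estimates, and these are given only as listed at 0. Psmb11, which in mammals belongs to the thymus, was listed at 0 in all 9 libraries.

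Set against the constitutive subunit that it replaces, the inducible subunit was the lower of the pair in nearly all livers. The ratio of psmb8a to psmb5 was at most 0.394 in C and APP_A together, 0.465 in APP_H2 and 1.48 in APP_H3. The ratio of psmb9a to psmb6 lay between 0.0119 and 0.269 in the other 8 libraries and was 2.88 in APP_H3. The ratio of psmb10 to psmb7 did not pass 0.414 in any library. Among these pairs, as listed, APP_H3 was thus the only library in which an inducible subunit, psmb8a or psmb9a, exceeded its constitutive counterpart. For psmb10 this rests on the uncertain division of reads with psmb12. Psmb12 was not given a counterpart. In APP_H2 it had 24.5 FPKM, above psmb5 (16.7 FPKM), psmb6 (19.1 FPKM) and psmb7 (6.82 FPKM). In APP_H3 it had 29.9 FPKM, against 13.3, 21.2 and 12.2 FPKM in the same order.

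**Figure D2:**
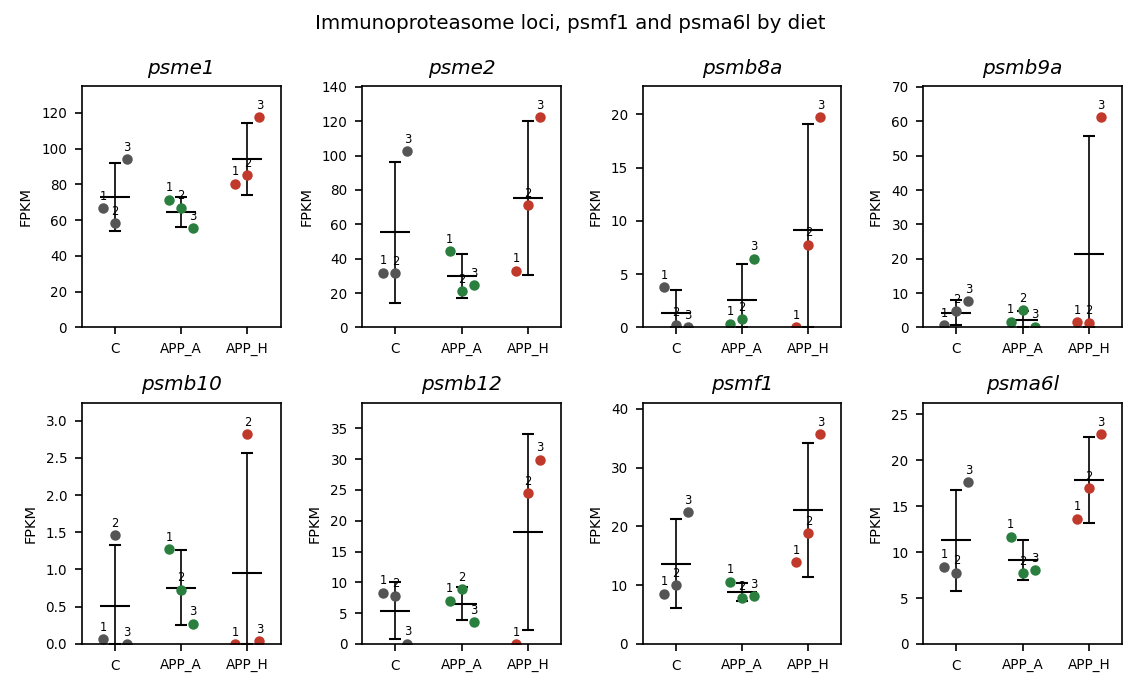
FPKM of the 6 immunoproteasome loci that passed the filter and of psmf1 and psma6l in C, APP_A and APP_H. Points are libraries with their number, the horizontal bar is the mean and the whiskers are 1 SD (n = 3), cut off at 0. APP_H3 is the highest library in each panel except psmb10, and C3 is the highest C library for psme1, psme2, psmf1 and psma6l.

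The classes differed in their spread between libraries. For each locus the range of log2(FPKM + 1) over the 9 libraries was taken. Its median was 0.87 for the alpha ring, 0.66 for the constitutive beta ring and 0.85 for the cap, against 3.43 for the immunoproteasome loci that passed the filter and 2.13 for all 20575 genes tested. All 34 core and cap loci had a range below that gene median, while 2 of 6 immunoproteasome loci (psme1 and psmb10) did. The ranges of psmb8a, psmb10 and psmb12 start from values listed at 0, which can be failed estimates, and psmb10 reached only 2.82 FPKM. Genes of similar level were not compared. Without APP_H3 the medians were 0.63, 0.66 and 0.70 for the alpha ring, beta ring and cap, 2.51 for the immunoproteasome and 1.55 for all genes. APP_H3 was the highest library for 5 of 6 immunoproteasome loci and for 7 of 34 core and cap loci (20.6%), where it was the highest for 26.3% of all genes. It was the lowest library for no immunoproteasome locus and for 8 of 34 core and cap loci (23.5%), against 25.7% of all genes. These shares are descriptions of the libraries and were not tested.

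Among core loci the widest ranges belonged to psmb7 (1.74) and psma6a (1.74). Psma6a, the most expressed of the psma6 loci, had 24.9, 24.1 and 21.9 FPKM in C, 21.1, 22.9 and 21.6 FPKM in APP_A, and 34.1, 15.02 and 9.54 FPKM in APP_H. Psmb7 had 12.8, 15.8 and 13.8 FPKM in C, 15.5, 21.8 and 19.5 FPKM in APP_A, and 25.2, 6.82 and 12.2 FPKM in APP_H. In both loci APP_H1 was the highest of all libraries and the other APP_H libraries were the lowest, so the width came from within the APP_H group. In psma6l the order within APP_H was turned round, with the lowest value in APP_H1 and the highest in APP_H3. Psma6a and psmb7 were picked out after their values were seen.

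Differences between diets were tested with limma on log2(FPKM + 1) for the 20575 genes with at least 1 FPKM in at least 3 libraries, among them 50 of the 53 loci. The others were psmb11 and psme4b, a paralog of psme4a, both listed at 0 throughout, and a minor psmg2 locus. A gene was called when its log2 fold change was at least 1 in size and its Benjamini-Hochberg adjusted p, over all 20575 genes, was under 0.05. The first comparison asked what an APP content of 0.2% did. For APP_A vs. C no proteasome locus was called, where 0.0972% of all genes were, and none had an unadjusted p under 0.05, where 1.48% of all genes were higher and 1.92% lower by that measure. All 8 alpha ring loci had a fitted value below 0, with a median log2 fold change of −0.18, against a median of −0.05 for all genes, of which 44.9% were above 0. Without C3 the alpha ring median was −0.035 and 3 of the 8 loci were above 0. The medians were −0.07 for the beta ring, 0.01 for the cap, 0.08 for the immunoproteasome and −0.04 for the assembly factors. Psme2 had a log2 fold change of −0.71 (SE 0.67, adjusted p = 1.0), and without C3 it was −0.15. The groups did not overlap for 2 loci that were higher in APP_A (psmg1 and psme4a), against 4.69% of all genes, and for 1 that was lower (psmd13), against 6.34% of all genes.

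The 5 loci with the lowest p in this comparison were psme4a, psmg1, psme3, psmd4a and psmd13. Psme4a, an activator of nuclear proteasomes, had 1.20, 1.40 and 2.15 FPKM in APP_A, against 0.92, 0.90 and 1.06 FPKM in C. All APP_A libraries were above all C libraries at these low levels, with a log2 fold change of 0.38 (SE 0.21, adjusted p = 1.0, and 0.23 without APP_A3). The lid subunit psmd13 had 11.5, 14.8 and 13.0 FPKM in APP_A, against 17.8, 17.2 and 15.3 FPKM in C, and its log2 fold change was −0.34 (SE 0.29, adjusted p = 1.0). Psmg1, which helps to assemble the alpha ring, had 6.07, 7.67 and 6.18 FPKM in APP_A, against 4.08, 5.29 and 5.91 FPKM in C, and a log2 fold change of 0.33 (SE 0.24, adjusted p = 1.0, and 0.21 without C1). Although the groups did not overlap for these 3 loci, limma did not separate the differences from the spread between libraries. That spread was pooled over all 9 libraries, APP_H3 included. Without APP_H3, 5.25% of all genes had an unadjusted limma p under 0.05 in this comparison, and 5.78% with only the 2 groups compared. No proteasome locus had one in either fit. The nuclear activator psme3 had 4.77, 8.55 and 11.5 FPKM in APP_A, against 4.17, 6.28 and 6.59 FPKM in C. Psmd4a had 15.2, 15.4 and 10.95 FPKM in APP_A, against 9.43, 7.69 and 14.3 FPKM in C. Groups overlapped for psme3 and psmd4a, with log2 fold changes of 0.42 (SE 0.34) and 0.40 (SE 0.33) and adjusted p values of 1.0. Single libraries moved both: psme3 was 0.17 without APP_A3, 0.25 without C1 and 0.73 without APP_A1, and psmd4a was 0.22 without C2 and 0.63 without C3.

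The second comparison asked the same of an APP content of 0.8% and shares its C libraries with the first. For APP_H vs. C again no proteasome locus was called (0.122% of all genes were), and none had an unadjusted p under 0.05 (3.18% of all genes were higher and 4.4% lower). Both counts were also 0 without APP_H3. The median log2 fold change was −0.14 for the alpha ring, 0.09 for the beta ring, 0.02 for the cap and −0.07 for the assembly factors, against −0.03 for all genes. Without APP_H3 these medians were −0.032, 0.0066, −0.034 and −0.11 in the same order. The 6 immunoproteasome loci all had a fitted value above 0, with a median of 0.61, and none had an adjusted p below 0.714. Fitted log2 fold changes were 1.64 for psmb8a (SE 1.21), 1.07 for psmb12 (SE 1.41), 0.73 for psmb9a (SE 1.34), 0.48 for psme2 (SE 0.67), 0.375 for psme1 (SE 0.380) and 0.20 for psmb10 (SE 0.61). The SE exceeded the difference for all of these except psmb8a.

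Single libraries, those of C included, moved that immunoproteasome difference. Its median was 0.20 without APP_H3, 0.43 without APP_H2 and 0.27 without C1, whereas it was 1.24 without APP_H1. Without APP_H3 the fitted values were 0.70 for psmb8a, 0.20 for psmb12, −0.83 for psmb9a, 0.043 for psme2, 0.21 for psme1 and 0.51 for psmb10. The C libraries weighed on psmb9a (0.0085 without C1 and 1.24 without C3), on psmb12 (0.028 without C3 and 1.61 without C1), on psme2 (0.21 without C1, 0.20 without C2 and 1.04 without C3) and on psme1 (0.23 without C2 and 0.57 without C3). For psmb10 the value was below 0 without APP_H2 (−0.43) or C3 (−0.028). Without APP_H1, 5 of the 50 loci had an unadjusted p under 0.05, where 18.4% of all genes had one in the same fit: psmb8a at 2.89, psmb12 at 2.67 and psmd11b at 0.67 were higher, and psma6a at −0.92 and the main psmg2 locus at −1.56 were lower, with no adjusted p below 0.227. Without C3 the count was 2, psma6l at 1.02 and psmf1 at 1.11, where 6.39% of all genes had such a p. With all libraries psma6l was at 0.67 and psmf1 at 0.71, and without APP_H3 they were at 0.49 and 0.35.

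Outside the immunoproteasome, the lowest p values of APP_H vs. C belonged to psmd11b, psme4a, psma6l, psmf1 and psmc3ip, each with an adjusted p of 0.667 or more. Psmd11b had 2.10, 2.98 and 3.39 FPKM in APP_H, against 1.69, 1.1 and 2.2 FPKM in C, with a log2 fold change of 0.53 (SE 0.25, and 0.42 without APP_H3). Its groups overlapped through APP_H1. Psme4a had 1.56, 1.56 and 1.77 FPKM in APP_H, against 0.92, 0.90 and 1.06 FPKM in C, and its log2 fold change was 0.42 (SE 0.21, and 0.39 without APP_H3). For psme4a all APP_H libraries were above the C libraries, where 5.91% of all genes were. The only other counted locus of this kind was psmc3ip (2.98, 2.83 and 3.66 FPKM in APP_H, against 2.53, 2.51 and 2.05 FPKM in C), which is not a proteasome subunit. Psmb6 and psmd13 had all APP_H libraries below those of C, where 7.02% of all genes did. Psmb6 had 15.8, 19.1 and 21.2 FPKM in APP_H, against 22.2, 22.2 and 28.3 FPKM in C. Psmd13 had 13.9, 14.99 and 9.45 FPKM in APP_H, against 17.8, 17.2 and 15.3 FPKM in C.

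**Figure D3:**
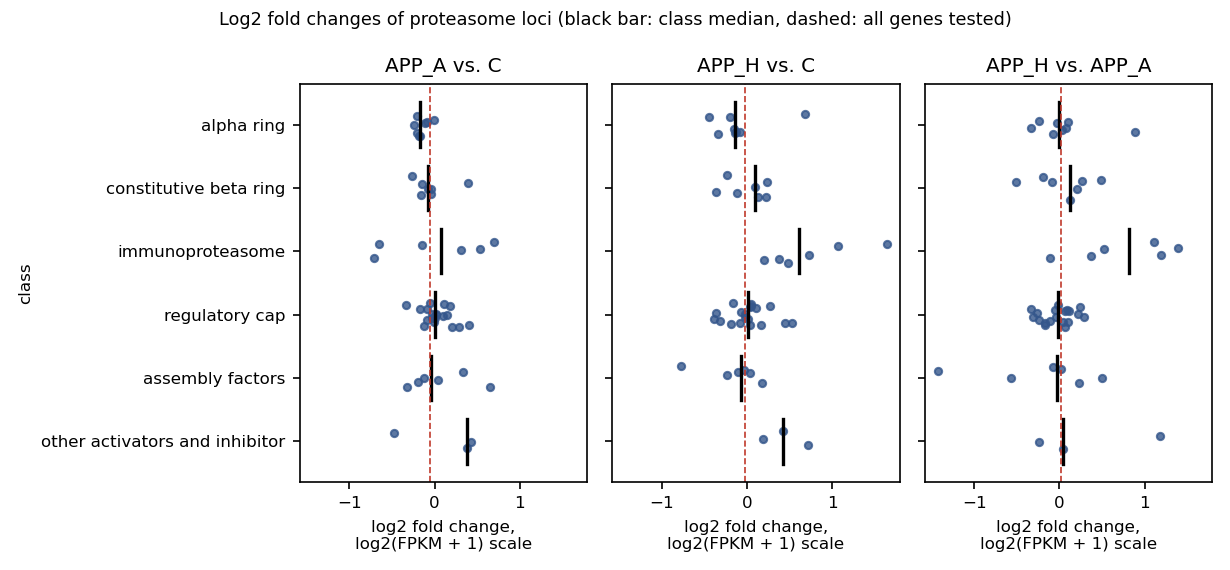
Fitted log2 fold changes of the loci that passed the filter, by class, with a panel for each comparison between diets. Each point is a locus, the black bar is the median of its class and the dashed line the median of all genes tested. From the left panel to the right the immunoproteasome medians are 0.08, 0.61 and 0.82, while those of the alpha ring, beta ring and cap stay between −0.18 and 0.13.

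The third comparison set the APP contents of 0.8% and 0.2% against each other. For APP_H vs. APP_A no proteasome locus was called (0.136% of all genes were). By an unadjusted p under 0.05, psmf1 was higher and psmg1 lower in APP_H, where 5.71% of all genes were higher and 5.17% lower. This count of 2 in 50 was below the share of all genes, and it was 0 without APP_H3, where 9.8% of all genes had such a p, and 8 without APP_H1, where 22.8% had. The APP_H libraries were all above those of APP_A for psma6l, psmb2, psmb4, psme1 and psmf1, where 7.45% of all genes were, and all below them for psmg1, where 7.06% were. Immunoproteasome loci had a median log2 fold change of 0.82, with values above 0 for all but psmb10, and the alpha ring had a median of 0.00, the beta ring 0.13, the cap −0.02 and the assembly factors −0.03, against 0.02 for all genes. Without APP_H3 the medians were 0.18 for the immunoproteasome, 0.15 for the alpha ring, 0.043 for the beta ring, −0.022 for the cap and −0.20 for the assembly factors, and without APP_H1 the immunoproteasome median was 1.82.

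Psmf1 encodes a proteasome-binding protein that inhibits the core in the test tube. It had 13.9, 18.8 and 35.7 FPKM in APP_H, against 10.6, 7.80 and 8.09 FPKM in APP_A, and 8.53, 10.0 and 22.4 FPKM in C. All APP_H libraries were above the APP_A libraries, while C3 lay within the APP_H range, and the log2 fold change over APP_A was 1.18 (SE 0.48, adjusted p = 0.436, and 0.82 without APP_H3). Psma6l, an alpha ring locus that shares its interval with an unnamed gene, had 13.6, 16.9 and 22.9 FPKM in APP_H, against 11.7, 7.68 and 8.05 FPKM in APP_A, and 8.42, 7.76 and 17.7 FPKM in C. As for psmf1, C3 stood above the other C libraries, and the log2 fold change over APP_A was 0.88 (SE 0.39, adjusted p = 0.466, and 0.70 without APP_H3). Psmg1 had 5.03, 3.84 and 3.60 FPKM in APP_H, against 6.07, 7.67 and 6.18 FPKM in APP_A. Its log2 fold change was −0.57 (SE 0.24, adjusted p = 0.456, and −0.49 without APP_H3), and the groups did not overlap.

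Psmg2 encodes the partner of psmg1 in ring assembly, and its 2 loci are listed on the same interval (3702378 to 3717210 of scaffold GL831161.1), so its reads may be divided between them. The main locus had 48.5, 10.3 and 7.16 FPKM in APP_H, against 29.8, 36.4 and 75.4 FPKM in APP_A, and 39.3, 20.6 and 25.2 FPKM in C. APP_H1 lay among the APP_A values and the other APP_H libraries were the lowest of all 9, with a log2 fold change over APP_A of −1.42 (SE 0.73, adjusted p = 0.487, −0.91 without APP_H3 and −2.21 without APP_H1). The minor locus had 0, 0.30 and 4.06 FPKM in APP_H, was listed at 0 in all APP_A libraries, and had 0.10, 0.30 and 1.43 FPKM in C. Psmb2, a structural beta ring subunit, had 5.69, 7.74 and 5.0 FPKM in APP_H, against 3.56, 3.94 and 4.66 FPKM in APP_A, with no overlap and a log2 fold change of 0.49 (SE 0.26, adjusted p = 0.502, and 0.60 without APP_H3). For the immunoproteasome, log2 fold changes of APP_H over APP_A were 1.39 for psmb9a (SE 1.34, and −0.17 without APP_H3), 1.19 for psme2 (SE 0.67, and 0.75 without APP_H3), 1.11 for psmb8a (SE 1.21, and 0.17 without APP_H3), 0.53 for psme1 (SE 0.38, and 0.36 without APP_H3), 0.37 for psmb12 (SE 1.41) and −0.11 for psmb10 (SE 0.61). The lowest adjusted p among them was 0.51, for psme2. The sign for psmb12 turned without APP_H3 (−0.50) or without APP_H2 (−0.36), and that for psmb10 without APP_H3 (0.19), without APP_H1 (0.22) or without APP_A1 (0.10).

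Genes of the interferon gamma response and of MHC class I presentation, which act before and after the proteasome, were compared as a list of 18 loci, of which 17 passed the filter. 1 locus of the list carries the names of both c1r, a complement gene, and tapbpl, so its reads cannot be assigned to either gene. None was called in any comparison. By an unadjusted p under 0.05 there were none for APP_A over C or for APP_H over APP_A, and 2 were lower in APP_H vs. C: irf2, which restrains interferon targets (5.94, 5.99 and 5.90 FPKM in APP_H, against 13.0, 10.7 and 10.7 FPKM in C, adjusted p = 0.466), and calr, a chaperone of MHC class I molecules (4.72, 7.12 and 3.87 FPKM in APP_H, against 14.7, 9.19 and 25.8 FPKM in C, adjusted p = 0.647). That count of 2 in 17 stands beside the 4.4% of all genes that were lower by the same measure. Without APP_H3 the log2 fold change was −0.83 for irf2 and −1.25 for calr. The list's median log2 fold change was −0.19 for APP_A over C, 0.49 for APP_H over C and 0.67 for APP_H over APP_A. The medians of APP_H include APP_H3, and values without it are not given here. Irf1b, an interferon-induced activator of immunoproteasome genes, had 32.6, 28.8 and 220.7 FPKM in C, 48.6, 28.1 and 23.3 FPKM in APP_A, and 33.5, 104.7 and 315.4 FPKM in APP_H. Tap1, which carries proteasome peptides into the endoplasmic reticulum, had 3.98, 3.52 and 26.8 FPKM in C, 6.96, 3.01 and 3.38 FPKM in APP_A, and 4.63, 13.1 and 48.1 FPKM in APP_H. High values of both genes were found in C3, APP_H2 and APP_H3, the libraries with the highest psme2. Stat1a, the signal transducer of interferon gamma, was also highest in these 3 libraries (68.5 FPKM in C3, 52.9 FPKM in APP_H2 and 41.1 FPKM in APP_H3, and 10.3 to 23.5 FPKM in the other 6). Irf9 lies on the same scaffold as psme2 (GL831138.1, irf9 at 9543949 to 9559347 and psme2 at 9509792 to 9514676) and had 41.6 FPKM in C3, 27.0 FPKM in APP_H2, 90.9 FPKM in APP_H3 and 12.2 to 20.1 FPKM in the other libraries. These 4 genes were chosen for this description after their values were seen. Some other members of the list went the other way. Canx (2.87 FPKM), pdia3 (58.7 FPKM), calr (3.87 FPKM) and the locus shared by c1r and tapbpl (49.4 FPKM) were lowest in APP_H3. There 7 of the 18 loci lay below the median of the other libraries. Among the inducible beta subunits in C3, psmb8a and psmb10 were listed at 0 and psmb12 at 0.04 FPKM, while psmb9a was at 7.61 FPKM. In APP_H2 psmb9a was at 1.36, psmb8a at 7.76 and psmb12 at 24.5 FPKM.

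**Figure D4:**
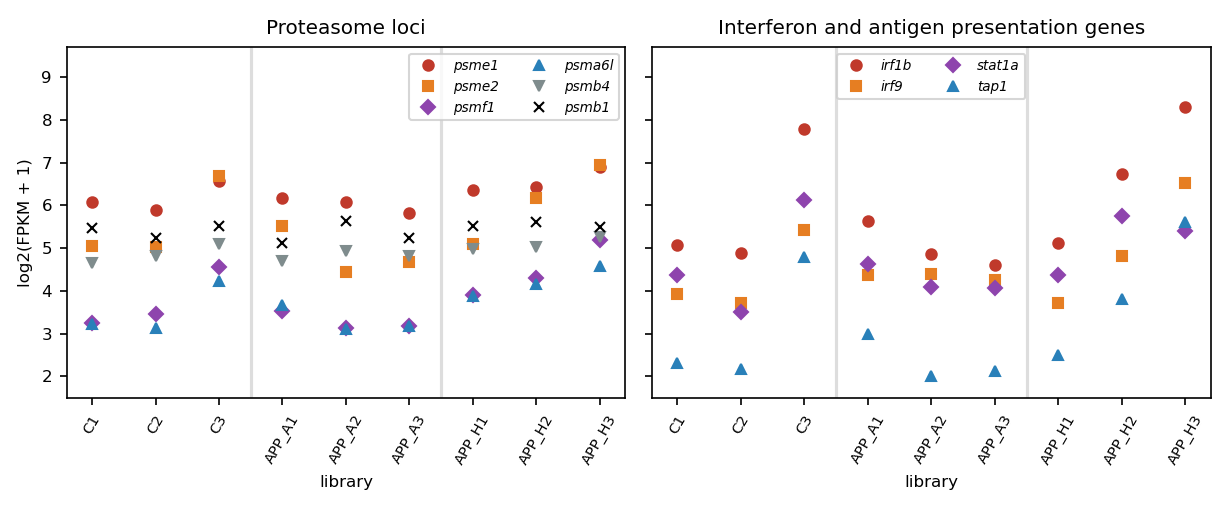
Levels of psme1, psme2, psmf1, psma6l, psmb4 and psmb1 (left) and of irf1b, irf9, stat1a and tap1 (right) in each of the 9 libraries, as log2(FPKM + 1). Psme2, psmf1, psma6l and the 4 interferon genes stand higher in C3, APP_H2 and APP_H3 than in C1 and C2, and psmb4 and psmb1 do so over a narrower range.

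Among immune cell markers, the lymphoid list was highest in APP_H2 and APP_H3. The 13 lymphoid loci had a mean log2(FPKM + 1) of 1.91, 1.93 and 2.07 in C, 2.0, 1.29 and 1.59 in APP_A, and 1.78, 2.64 and 2.72 in APP_H. Their summed level was 65.0 to 83.3 FPKM in C, 43.7 to 77.9 FPKM in APP_A and 67.9 to 193.4 FPKM in APP_H. The largest member of this sum in every library was ptprc, with 110.4 FPKM in APP_H2 and 76.7 FPKM in APP_H3. Ptprc is not specific to lymphoid cells. Next in APP_H3 came cd79a, with 57.8 FPKM there and 9.32 FPKM in APP_H2. Cd8a had 3.39 FPKM in APP_H2 and 1.56 FPKM in APP_H3 and was highest in C2 (4.80 FPKM). In APP_H vs. APP_A all 10 lymphoid loci that passed the filter had a fitted value above 0. For the 15 myeloid loci the summed level was 4455 to 7113 FPKM in C, 5577 to 7510 FPKM in APP_A and 5175 to 8687 FPKM in APP_H, with 11 of 14 above 0 in that comparison. By an unadjusted p under 0.05, 3 of the 10 lymphoid and 5 of the 14 myeloid loci were higher in APP_H vs. APP_A, against 5.71% of all genes. In APP_H vs. C, 1 of the 10 lymphoid and 2 of the 14 myeloid loci were higher, against 3.18% of all genes. In APP_A vs. C, 1 of the 10 lymphoid loci was lower, against 1.92% of all genes. Counts without APP_H3 are not given here. The myeloid sum rests mainly on 2 lyz loci and cd74b, and the lyz loci were at 112.3 and 40.2 FPKM in APP_H3, where cd74b was at 4854 FPKM, against 697.4 to 2063 FPKM in the other libraries. The mean log2(FPKM + 1) of the myeloid list was 4.39, 4.21 and 4.21 in C, 4.35, 3.93 and 4.06 in APP_A, and 4.36, 4.88 and 4.39 in APP_H, with the highest value in APP_H2. No locus of either list was at 0 in all libraries. The erythroid loci had their highest means of log2(FPKM + 1) in C3 (4.62), APP_H2 (4.42) and APP_H3 (6.99), and means of 2.41 to 4.01 in the other libraries. Psme2, psmf1 and psma6l were highest in the same libraries. The part of immune cells, of erythroid cells, or of the shifted markers of APP_H3, in the levels of the immunoproteasome, psmf1 and psma6l was not tested. In RNA of whole tissue, a change in the number of cells of a type and a change in the RNA per cell cannot be told apart.

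Proteins that act beside the proteasome were followed through 3 further lists. Of 13 loci for proteasome partners, 12 passed the filter and none was called. Uchl5, a deubiquitinase of the cap, had 4.0, 3.61 and 7.83 FPKM in APP_A and 3.79, 5.46 and 5.59 FPKM in APP_H, against 9.59, 11.2 and 9.32 FPKM in C. Both APP groups lay below C, with a log2 fold change of −0.90 in APP_A vs. C (SE 0.32, adjusted p = 1.0) and of −0.90 in APP_H vs. C (SE 0.32, adjusted p = 0.591), and these comparisons share the C libraries. Without APP_H3 the value of APP_H over C was −0.98. The value of APP_A over C ran from −0.73 without APP_A2 to −1.20 without APP_A3. The unadjusted limma p of uchl5 was 0.023 in both comparisons. It was above 0.05 without APP_A1, APP_A2 or C2 for APP_A over C, and without APP_H1 or C2 for APP_H over C. Among all genes, 6.34% had all APP_A libraries below C and 7.02% had all APP_H libraries below C. Akirin2, which brings proteasomes into the nucleus, has 2 loci. The one at 2567819 to 2574438 of scaffold GL831178.1 had 8.29, 12.3 and 12.8 FPKM in APP_H, against 7.24, 5.61 and 7.59 FPKM in APP_A and 6.89, 6.62 and 6.74 FPKM in C. Its APP_H libraries were above all others, with log2 fold changes of 0.63 over C (SE 0.27, adjusted p = 0.654) and 0.62 over APP_A (SE 0.27, adjusted p = 0.458), or 0.52 over each without APP_H3. Among all genes, 5.91% had all APP_H libraries above C and 7.45% had them above APP_A. The unadjusted limma p of this locus was 0.048 over C and 0.049 over APP_A. Both were above 0.05 in each fit without a library, except the fit without APP_H1. The other akirin2 locus was more expressed, with 21.75, 19.85 and 24.36 FPKM in APP_H, 16.29, 18.37 and 20.0 FPKM in APP_A, and 16.65, 19.62 and 17.33 FPKM in C. There all APP_H libraries were above those of C, as for 5.91% of all genes, while the APP_H and APP_A groups overlapped. Log2 fold changes were 0.28 over C (SE 0.28, adjusted p = 0.747) and 0.26 over APP_A (SE 0.28, adjusted p = 0.696), or 0.21 and 0.18 without APP_H3. Txnl1, a thioredoxin bound to the cap, had 7.53, 8.66 and 5.60 FPKM in APP_H, against 9.13, 15.6 and 13.9 FPKM in APP_A, a log2 fold change of −0.73 (SE 0.30, adjusted p = 0.437, and −0.58 without APP_H3). Its unadjusted limma p was 0.040, and above 0.05 in each fit without a library, except those without APP_A1 or APP_H2. These 3 genes were the members of the list with an unadjusted p under 0.05, in the comparisons given, which is at most 1 of 12 in a direction, against 1.92% to 5.71% of all genes. Of 9 loci for the control of proteasome genes, such as nfe2l1a and nfe2l1b, 7 passed the filter, and of 15 loci for ubiquitin and substrate delivery 14 did. None of these 21 had an unadjusted p under 0.05 in any comparison.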

How the data were processed

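The authors filtered the reads of 9 liver libraries, aligned them with TopHat 2 to the tilapia genome and deposited FPKM values per locus of a merged Cufflinks assembly. The submitters' processing notes list other tools, without roles (Bowtie 0.12.2, HISAT2 2.0 and StringTie 1.3.0), and the mouse build mm8. The build behind the scaffold positions is not given in the sources used here, and positions are as listed in the table. The authors selected DE genes with Cuffdiff, a step that was not repeated because it starts from reads.

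Groups were taken from the condition given in the labels. Genes that reached 1 FPKM in 3 or more libraries (20575) were kept as log2(FPKM + 1) and compared with limma 3.58.1 in R 4.3.3, in 1 fit of the 3 groups with a mean-dependent prior variance. The Benjamini-Hochberg adjustment ran over all genes, separately for each comparison, with the study's limits for DE genes (a log2 fold change of at least 1 in size and an adjusted p under 0.05). The step was run on simulated data with independent noise of equal spread in all groups. Such data hold no library with shifted markers like APP_H3, so they do not show how the step handles one. Members, classes, lists and alternatives were chosen with earlier results of these data known, and lists were written from general knowledge. Loci named with values were each immunoproteasome locus, the 5 other loci with the lowest p in each comparison, and the highest and lowest locus of each class, while further subunits (such as psmb5, psmb6, psmb7 and the ATPases) were named for their role with their values known. Loci of other lists were named for an unadjusted p under 0.05, and further ones are said in the text to have been chosen after their values were seen.

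There were 10 alternatives (a pseudocount of 0.1, median-ratio scaling, no filter, a filter at 5 FPKM, scaling to a common total (TPM), quantile normalization, the replicate number as a block, fits of 2 groups alone, a constant prior variance, and values of 0 set missing where the other libraries had a median of at least 10 FPKM), and 9 fits each left out a library. Figures were drawn with matplotlib 3.10.9.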

Additional observations from a re-analysis of the deposited data

How the results depend on the processing

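No proteasome locus was called by limma in any of the 3 comparisons under any of the 10 alternatives or the 9 fits without a library. Of all genes, only 0.0146% to 0.287% were called in these fits, so a count of 0 in 50 loci does not set the proteasome apart. Loci with an unadjusted p under 0.05 remained at a count of 0 in APP_A vs. C throughout, where 2.69% to 5.78% of all genes had one. In APP_H vs. C the count was 0 under the alternatives, where 5.67% to 7.8% of all genes had such a p. It was 0 to 5 when a library was left out, the 5 of 50 being without APP_H1, where 18.4% of all genes had one. In APP_H vs. APP_A, where it was 2, it was 1 with median-ratio scaling, quantile normalization or only the 2 groups compared, 0 when scaled to TPM, and 0 to 8 when a library was left out, the 8 again without APP_H1, where 22.8% of all genes had one. The replicate numbers do not pair the samples: deviations of same-numbered libraries correlated at −0.07 to 0.13 and of others at −0.14 to 0.09. With the replicate block that count was 1, and no locus was called.

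Scaling to TPM raised the median of all genes by 0.22 for APP_H over C and by 0.20 for APP_H over APP_A, and class medians are to be read relative to this shift. They were 0.18 (alpha ring), 0.42 (beta ring), 0.30 (cap) and 0.22 (assembly factors) for APP_H over C, and 0.29, 0.42, 0.25 and 0.23 for APP_H over APP_A in the same order. Quantile normalization gave −0.0027 for the alpha ring and 0.11 for the beta ring for APP_A over C, and 0.24 for the beta ring for APP_H over C. A pseudocount of 0.1 gave 0.60 for the immunoproteasome for APP_A over C and −0.56 for psmb12 for APP_H over APP_A, and TPM gave 0.044 for psmb10 there. Fits without a library gave medians of −0.13 to 0.15 for the assembly factors of APP_A over C, and for APP_H over APP_A −0.026 to 0.22 for the beta ring and 0.18 to 1.82 for the immunoproteasome. In the same fits psmb9a lay between −0.83 and 1.53 and psmb10 between −0.43 and 0.62 for APP_H over C, and for APP_H over APP_A psmb9a between −0.17 and 2.18, psmb10 between −0.74 and 0.22, and psmb12 between −0.50 and 1.97. Of 28 log2 fold changes of named loci, 5 changed sign under some setting. The cause of these shifts was not tested. The paper lists valid and mapped reads for each library. Read counts of single loci were not available, which limits most the loci near 0 FPKM.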

Other observations

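Among genes tied to the proteasome, some differed strongly between libraries of the same diet. Fbxo7, an F-box protein that binds the product of psmf1, had 2.44, 2.59 and 8.74 FPKM in C, 2.25, 2.23 and 2.51 FPKM in APP_A, and 3.30, 3.34 and 11.7 FPKM in APP_H. Its highest values fell in C3 and APP_H3, which were also the highest libraries for psmf1. The mean log2(FPKM + 1) of the erythroid markers was highest in the same libraries, at 4.62 and 6.99. Whether these levels are linked was not tested. Zfand5b, a paralog of zfand5a, whose product activates the proteasome in mammals, had 38.0, 82.6 and 37.3 FPKM in C, 43.3, 129.6 and 51.0 FPKM in APP_A, and 112.3, 156.6 and 15.6 FPKM in APP_H. Zfand5a had 18.2, 22.4 and 18.6 FPKM in C, 11.6, 31.2 and 17.5 FPKM in APP_A, and 19.8, 23.9 and 61.4 FPKM in APP_H. APP_H3 was thus the highest library for zfand5a and the lowest for zfand5b. For fbxo7 the APP_H libraries were all above those of APP_A, where 7.45% of all genes were, and overlapped with those of C. The diets overlapped in both zfand5 loci. These genes were chosen after their values were seen.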
